A study of Arabidopsis thaliana with 16 samples.

Results

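The genotype-dependent response to spaceflight was measured in Arabidopsis callus cells as an interaction of genotype and environment. For each probe set it is the flight response of HSFA2 KO cells minus the flight response of WT cells, where a response is the log2 signal in flight minus that on the ground. The members were the probe sets of the ATH1 array whose mean signal was over 100 in at least 1 of the 4 groups, 13023 of 22810 on the array. Of the rest, 9723 stayed at or below 100 in every group and 64 were control probe sets. The choice of members used signal levels and not the interaction itself. Of the members, 12886 carried 1 locus name and 137 carried none. The groups were WT cells in flight (FWt), WT cells on the ground (GWt), HSFA2 KO cells in flight (FHsf) and HSFA2 KO cells on the ground (GHsf). All were undifferentiated cell cultures of the Col-0 background, labelled 14 days old, grown on plates in BRIC canisters and fixed on day 10. The ground plates were run 48 h behind the flight plates. The HSFA2 KO line carries a T-DNA insertion in HSFA2 and was a single callus-derived line, as was WT, so plates do not replicate a genotype.

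HSFA2 is a heat shock transcription factor that is induced by heat, strong light and oxidative stress, and prolongs the expression of small heat shock proteins and other chaperones. Cells short of sugar switch on a separate program, which includes enzymes that break down leucine, isoleucine and valine in mitochondria. Callus is a proliferating tissue formed from hypocotyl cells through a root-like program, in which auxin and D-type cyclins drive division. An interaction asks whether the loss of HSFA2 alters the way in which such genes respond to flight, which a difference between genotypes in 1 environment does not show.

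There were 5 WT arrays and 3 HSFA2 KO arrays per environment. Plate A1 of WT was hybridised to 2 arrays in each environment, whose log2 signals were averaged, which left 4 WT plates and 3 HSFA2 KO arrays in each environment, or 14 units from 16 arrays. Both canisters, BRIC A and BRIC B, held 2 WT plates each, and HSFA2 KO plates were held in BRIC B alone. The GHsf arrays B3 and B3-2 carry the same plate in their titles, although another label of B3-2 names a different position, so GHsf may hold 2 plates and not 3. Their correlation was 0.848, against 0.844 to 0.914 for other pairs within a group. Arrays titled Rep2 were FHsf B3, GHsf B3-2, GHsf B5 and 1 of the 2 arrays of plate A1 in each environment, and they are called Rep2 arrays here, a set whose meaning the labels do not state. A fit of Rep2 arrays only holds 1 array each of FWt, GWt and FHsf and 2 of GHsf, and a fit without them holds 2 FHsf arrays and 1 GHsf array, so the errors of such fits assume that a lone array varies like the others. Array medians ran from 68.7 to 123. The log2 ratio of the 3′ to the 5′ GAPDH control, a sign of RNA length, was 2.10 to 2.65 in GHsf, 2.07 to 2.45 in FHsf, 2.12 to 2.51 in FWt and 1.85 to 2.91 in GWt. These ranges overlap. In bulk RNA, fewer cells of a type and less RNA per cell cannot be told apart.

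HSFA2 itself had a signal of 5362, 5748, 9045 and 9180 in FWt plates A1, A2, B1 and B2, and of 3187, 4126, 6291 and 3750 in the GWt plates. In HSFA2 KO cells the signal was 170, 42 and 34.5 in flight and 7.38, 71.2 and 76.5 on the ground. Every WT plate was far above every HSFA2 KO array, as the genotype labels say. All 4 flight plates of WT had more HSFA2 signal than the A1, A2 and B2 ground plates, but ground plate B1 lay within the flight range. The interaction of HSFA2 was 0.11 (SE 1.09), with an exact permutation p of 0.947 (two-sided, environment labels permuted within each genotype over 1400 arrangements). Its HSFA2 KO response compares low remaining signals, and the interaction was not called.

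An interaction was called where limma gave an unadjusted p under 0.01 and a size over 1 on the log2 scale. By this rule 136 members were called, 1.04% of those tested. The HSFA2 KO response exceeded the WT response for 50 of them (0.384%) and fell short of it for 86 (0.66%). After quantile normalization 148 were called, 71 higher and 77 lower, so the split between directions depends on the scaling. An unadjusted p under 0.01 at any size was found for 146 members, where 130 would lie if p-values were evenly spread, and a p under 0.05 for 705 (5.41%), where 651 would lie. With Benjamini-Hochberg adjustment over all members 1 gene, CHR34, remained under 0.05 (adjusted p = 0.00813 by limma), and with an intensity trend in the fit none did, where 749 had an unadjusted p under 0.05. No adjusted p from limma was under 0.05 either with WT plates of BRIC B only (645 unadjusted p-values under 0.05), with single arrays unaveraged (709), with the array set as a term (667) or with a mean over 100 across all units (478). Fits that left out 1 unit had 1 to 3 members under it, and the replicate block by plate position had 2. Fits that kept 1 array in a group are not counted here, since their errors assume that a lone array varies like the others. The median standard error of the interaction was 0.525, and 2904 members (22.3%) had an interaction over 1 in size whatever their p.

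**Figure D1:**
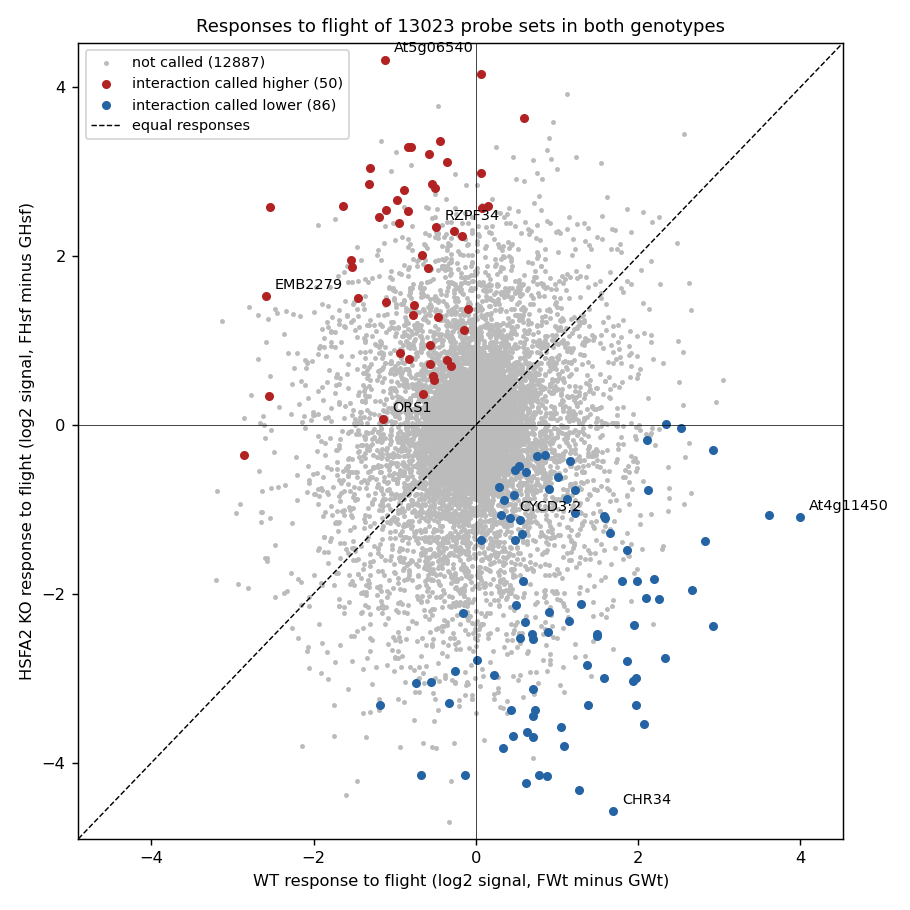
Flight response of HSFA2 KO cells (y axis, log2 FHsf minus GHsf) against that of WT cells (x axis, log2 FWt minus GWt), 1 point per probe set, with the 50 interactions called higher in red, the 86 called lower in blue and the line of equal responses dashed. Most called points lie in the upper left and lower right quadrants, where the responses have opposite signs, 44 of 50 and 77 of 86.

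The measured responses of the genotypes were weakly correlated across members. Their correlation over the 13023 members was 0.0648, and 0.156 over the 8515 members with a mean over 100 in all 4 groups. Genes are not independent replicates, and the responses share no array. Error in each response lowers such a correlation, so the weak value does not show that the responses themselves differ. The HSFA2 KO response, from 3 arrays against 3, had a spread of 0.851 (SD across members) and the WT response, from 4 plates against 4, of 0.61. Of the members, 220 (1.69%) were called in the HSFA2 KO response and 87 (0.668%) in the WT response, and 7 in both, 4 of them in the same direction. The 136 called interactions included 70 of the 220 (31.8%) and 22 of the 87 (25.3%), and 47 were called in neither response.

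The called interactions were mostly of opposite movement. Among the 50 called higher, 44 had responses of opposite sign, 26 had an HSFA2 KO response over 1 with a smaller WT response, 3 the reverse, and 12 had both over 1 in opposite directions. Among the 86 called lower, 77 had opposite signs, 34 had a large HSFA2 KO response alone, 9 a large WT response alone, and 33 both in opposite directions. Over all members 45% of responses had opposite signs, and the call by its nature favours them. When the group farthest from the mean of the other groups was taken for each called gene, it was GHsf for 56, FHsf for 45, GWt for 29 and FWt for 6 of 136. Over all members it was GHsf for 35%, FHsf for 25.6%, GWt for 20.5% and FWt for 18.9%, and for the called genes 41.2%, 33.1%, 21.3% and 4.41% in the same order. Over the 2904 members with an interaction over 1 in size, whatever their p, the shares were 41.2%, 25.6%, 18.8% and 14.5%. The share of GHsf among the called genes was thus that of any large interaction. For 45 of the called genes the genotypes differed by over 1 on the ground and by less in flight, and for 16 the reverse. This held for 1744 and 1151 of all 13023 members, and for 1219 and 743 of the 2904 with an interaction over 1 in size. For 56 of the called genes they differed by over 1 in both environments and in opposite directions, as did 269 of all members. Such gaps by themselves make an interaction over 1 in size, so all 269 were among those 2904, and a comparison with all members is set by the call rule. These splits were chosen after the values were seen and are descriptions.

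Signal level bore on the calls. Of the 136 called, 69 were over 100 in 1 group only, where 2.95% of such members were called, and 25 were over 100 in all 4 groups, where 0.294% were called. A member admitted through its single high group already differs among groups, so the former share is not a result about these genes. The median standard error was 0.379 for members over 100 in all 4 groups and 1.39 for those over 100 in 1 group. Values of single plates well under 100 are therefore given below as measured, with wide errors. When members were instead chosen by a mean over 100 across all 14 units, which does not look at the groups, 63 of 10095 were called.

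CHR34 (At2g21450, chromosome 2, 9179410 to 9183037 in TAIR10.1), named as a member of the chromatin remodeling protein family, had the strongest interaction. Its signal was 118, 127 and 207 in GHsf and 4.18, 6.05 and 9.07 in FHsf. In WT cells it was 12.7 to 31 in GWt and 31, 53.1, 61.3 and 122 in FWt. The HSFA2 KO arrays did not overlap, as for 16.5% of all members (3.5% for WT plates), and the WT plates moved the other way with 1 shared value at 31. The HSFA2 KO response of CHR34 was −4.57 (SE 0.49), the WT response 1.69 (SE 0.42) and the interaction −6.26 (SE 0.65). Its interaction was −6.82 (SE 0.67) with WT plates of BRIC B only, −5.11 without Rep2 arrays and −8.57 among Rep2 arrays only. It was over 100 in GHsf alone, so the size of the change rests on low signals in the other groups.

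Other genes called lower with a small p also had a high GHsf and a low FHsf. At1g49570, annotated as a peroxidase, had 107, 154 and 51.8 in GHsf and 33.2, 22.7 and 15.8 in FHsf. In WT its GWt plates held 14.3 to 20.6 and the FWt plates 23.7 to 112. Both genotypes separated, in opposite directions, and the interaction was −4.16 (SE 0.75). At4g11450, of unknown function, differed in that the WT plates carried most of it. Its signal was 3.32 to 7.77 in GWt and 80.1 to 125 in FWt, without overlap, whereas its HSFA2 KO arrays overlapped (15.4, 94.5 and 70.3 in flight, 89.7, 38.8 and 286 on the ground), and the interaction was −5.09 (SE 0.98). BGAL1, a beta-galactosidase, had 121, 128 and 66.4 in GHsf and 5.40, 7.16 and 13.6 in FHsf, with WT plates between 10.8 and 73.7 in both environments.

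Further genes of this set had low values in FHsf or opposite movement. MFDX1, a mitochondrial ferredoxin of iron-sulfur metabolism, had 20.5, 25.9 and 20.2 in FHsf against 175, 86.7 and 72.6 in GHsf, while the WT plates held 93.2 to 175 on the ground and 99.9 to 144 in flight. FHsf was the only low group of MFDX1, and the interaction was −2.07 (SE 0.43). The exact permutation p of MFDX1 was 0.0743, and its WT plates overlapped. ALDH3F1, an aldehyde dehydrogenase, had 121, 59.5 and 52.4 in FHsf and 161 to 217 in GHsf, against 225 to 265 in FWt and 121 to 222 in GWt, an interaction of −1.84 (SE 0.41). At4g01570, a pentatricopeptide repeat protein, a family that processes organellar RNA, had 2.93, 22.4 and 11.8 in FHsf and 76 to 252 in GHsf, with WT plates of 32.3 to 145, and an interaction of −4.40 (SE 0.94). At1g16790, annotated as ribosomal protein-related, had 57 to 117 in FHsf and 150 to 165 in GHsf, against 61.8 to 182 in FWt and 37.8 to 61 in GWt, so both genotypes separated and in opposite directions, an interaction of −2.26 (SE 0.49). At5g58120, annotated as a disease resistance protein, had 3.22 to 7.72 in FHsf and 30.9, 143 and 146 in GHsf, an interaction of −5.59 (SE 1.11). At1g70650, a Ran-binding zinc finger protein, had 3.79 to 12.1 in GWt and 33.3 to 95.5 in FWt, with 56.3 to 149 in GHsf and 8.35 to 55.7 in FHsf, an interaction of −4.61 (SE 0.95). At3g30220, of unknown function, had an interaction of −3.42 (SE 0.76), and CYCD3;2 is described below with the genes of higher signal. All 12 kept a negative interaction under every alternative in which they were fitted, and 11 of 12 were called with WT plates of BRIC B only, 9 without Rep2 arrays and 3 among Rep2 arrays only. Only 2 of the 12 had a mean over 100 across all units, and both were called there. The alternatives refit the arrays that picked these genes, so a kept sign is no independent support.

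The 12 genes called higher with the smallest p were taken from probe sets that match 1 locus. They were led by genes that were low in GHsf. At3g29330, of unknown function, had 17.7, 6.20 and 7.85 in GHsf and 97.6, 25.5 and 131 in FHsf, while in WT it had 101 to 172 in GWt and 32.3 to 93.8 in FWt. Both genotypes separated, in opposite directions, and the interaction was 4.18 (SE 0.81, exact permutation p = 0.00143, the smallest that 1400 arrangements allow). At5g06540, a pentatricopeptide repeat protein, had 3.58 to 6.57 in GHsf and 162, 139 and 50.4 in FHsf, and its WT plates overlapped (5.52 to 65 in flight, 11.4 to 103 on the ground). Its interaction of 5.45 (SE 1.23) was 0.53 (SE 0.53) among Rep2 arrays only. At4g17100, annotated as a serine protease-like protein, had 11.5, 27.8 and 23.8 in GHsf against 106, 118 and 128 in FHsf, and overlapping WT plates of 57.8 to 214. Here GHsf was the only low group.

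In EMB2279 and At1g50590 the WT response was as large as the HSFA2 KO response or larger. EMB2279, a pentatricopeptide repeat protein whose loss arrests embryos, had 62.9 to 261 in GWt and 9.74 to 32.9 in FWt. Its HSFA2 KO arrays overlapped, at 86, 91.8 and 110 in flight and 136, 13.6 and 19.4 on the ground, and the interaction was 4.12 (SE 1.03). At1g50590, a pirin-like protein, had 8.21 to 59.5 in FWt and 38.9 to 205 in GWt, against 52.2 to 97.4 in FHsf and 5.72 to 37.6 in GHsf, an interaction of 5.12 (SE 1.22). The serine carboxypeptidase scpl21 had 82.6 to 129 in FWt and 132 to 238 in GWt, with overlapping HSFA2 KO arrays (70.4 to 195 in flight, 28.4 to 71.9 on the ground), an interaction of 2.07 (SE 0.55). At1g23650, of unknown function, had 5.80 to 29.6 in GHsf and 60.1 to 180 in FHsf, an interaction of 3.47 (SE 0.90). At4g22770, also named AHL2, a nuclear protein with an AT-hook motif, had 7.96 to 15.4 in GHsf and 52.3 to 144 in FHsf, an interaction of 3.78 (SE 1.03). The WT plates of At1g23650 and At4g22770 overlapped. At1g77480, AILP1, At4g02550 and ORS1 completed the 12. These genes too were picked on the arrays that the alternatives refit, so a kept sign is no independent support. All 12 kept a positive interaction under every alternative in which they were fitted, but 6 of 12 were called with WT plates of BRIC B only, 3 without Rep2 arrays and 1 among Rep2 arrays only.

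The 25 called genes with a mean over 100 in all 4 groups, 12 higher and 13 lower, are not subject to the choice through a single group, and their interactions were smaller, with a size of 1.75 at most. CYCD3;2 (At5g67260), a D-type cyclin that starts the cell cycle in response to cytokinin and sugar, had the smallest p among them. It had 771, 903 and 917 in GHsf and 483, 343 and 388 in FHsf, without overlap. In WT it had 464 to 681 in GWt and 643 to 976 in FWt, which overlap. The interaction of CYCD3;2 was −1.53 (SE 0.29), with values of −1.79 with WT plates of BRIC B only, −1.46 without and −1.15 among Rep2 arrays only, the last with a limma p of 0.129. It was called in each fit that left out 1 unit.

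**Figure D2:**
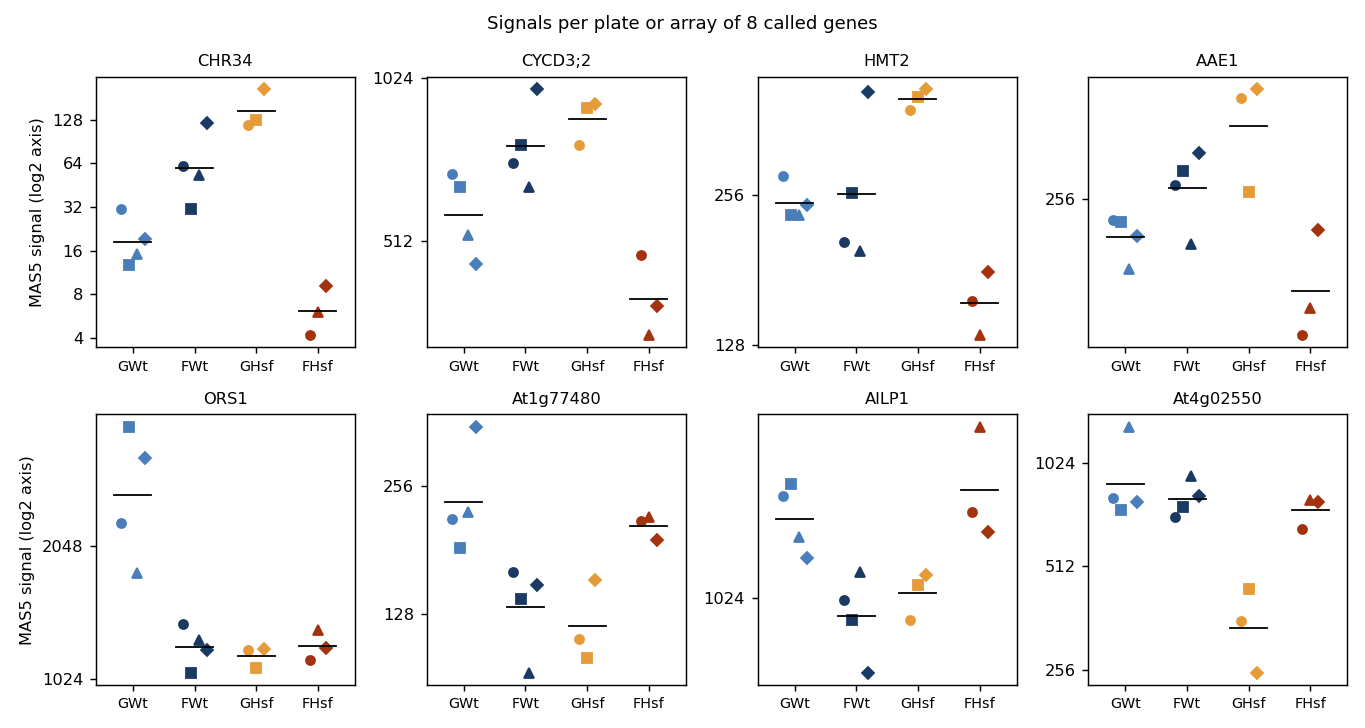
MAS5 signal (log2 axis) of CHR34 and 7 called genes over 100 in all 4 groups, 1 point per WT plate or HSFA2 KO array, with the mean of the log2 signals as a line and marker shapes for plates (in WT, circle A1, square A2, triangle B1, diamond B2; in HSFA2 KO, circle B3, square B3-2, triangle B4, diamond B5). CYCD3;2, HMT2 and AAE1 are low in FHsf and high in GHsf, ORS1 is high in GWt alone, and At4g02550 is low in GHsf alone.

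Of these 25 genes, HMT2, a homocysteine S-methyltransferase that makes methionine, had 380 to 417 in GHsf and 134 to 179 in FHsf, with 233 to 279 in GWt and 198 to 413 in FWt. Only its HSFA2 KO response was called (−1.36, SE 0.25), and the interaction was −1.42 (SE 0.33). AAE1, an acyl-activating enzyme, had 403, 264 and 418 in GHsf against 139, 157 and 223 in FHsf and an interaction of −1.38 (SE 0.32). FRL1, a relative of the flowering regulator FRIGIDA, had 216 to 272 in GHsf and 108 to 165 in FHsf, with an interaction of −1.25 (SE 0.28). For these 3 genes the HSFA2 KO arrays separated and the WT plates overlapped.

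ORS1 (At2g41230, ORGAN SIZE RELATED 1), a small membrane protein that promotes cell expansion and division, had the opposite origin. It had 2311, 3808, 1777 and 3241 in the GWt plates A1, A2, B1 and B2 and 1057 to 1359 in FWt, a fall of 1.14 (SE 0.22). In HSFA2 KO cells it stood at 1084 to 1194 on the ground and 1129 to 1322 in flight, at the level of WT cells in flight. The interaction was 1.21 (SE 0.33), and 1.05 (SE 0.38) with WT plates of BRIC B only, with a limma p of 0.0273. ILP1, known for regulating endoreduplication, had 130 to 303 in GWt, 353 to 451 in FWt, 268 to 474 in GHsf and 201 to 256 in FHsf, so both genotypes separated and in opposite directions, an interaction of −1.66 (SE 0.44). At1g78420, also named DA2, a ubiquitin ligase that limits organ growth, had an interaction of −1.01 (SE 0.31). These 4 regulators of division and growth, CYCD3;2, ILP1, DA2 and ORS1, were put side by side after their values were seen.

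AILP1, an aluminium-induced protein, moved oppositely in the genotypes at high signal. It had 1186 to 1556 in GWt and 780 to 1126 in FWt, and 947 to 1114 in GHsf and 1402, 1917 and 1304 in FHsf. The interaction was 1.06 (SE 0.27, exact permutation p = 0.00143), and 4 of the fits that left out 1 unit lost the call. At1g77480, a nucellin-like aspartyl protease, had the same shape with 183 to 352 in GWt, 93.6 to 161 in FWt, 101 to 154 in GHsf and 191 to 217 in FHsf, an interaction of 1.60 (SE 0.37). At4g02550, of unknown function, had 251 to 438 in GHsf and 655 to 1302 in every other unit, an interaction of 1.27 (SE 0.34). NIT4, a nitrilase of cyanide detoxification whose probe set matches 2 loci, had 105, 164 and 171 in GHsf and 274, 591 and 317 in FHsf, and an interaction of 1.47 (SE 0.45).

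NRPB1 and TAF13 were also among the 25 and had opposite signs. NRPB1, the largest subunit of RNA polymerase II, had 106 to 184 in GWt and 221 to 329 in FWt, and higher values in HSFA2 KO cells in both environments (381 to 656 in GHsf, 332 to 496 in FHsf), an interaction of −1.21 (SE 0.36). TAF13, a subunit of TFIID, had an interaction of 1.00 (SE 0.29), just past the size limit. The strongest signals belonged to At3g29240, of unknown function and matching 2 loci, with 5549 to 7815 in GWt, 2583 to 8923 in FWt, 5421 to 7952 in GHsf and 11555 to 21988 in FHsf, and an interaction of 1.75 (SE 0.56). At5g53620, At1g15280, At5g66070, At2g18630, At5g59400, At1g28760, At5g64830, At2g42390, At4g26550, HOS3-1 and ABCI7, a subunit that assembles iron-sulfur clusters in plastids, made up the rest, with interactions from −1.63 to 1.52. Of the 25, 12 lost the call in at least 6 of the fits that left out 1 unit, NRPB1, TAF13, NIT4, DA2 and At3g29240 among them, and 9 lost it in none. Of all 136 called members, 87 lost it in at least 1 such fit.

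The study places 3 genes in opposite responses to flight in the genotypes, so they are not an independent choice, since these arrays served to pick them. U11/U12-31K (At3g10400), a protein of the minor spliceosome, had 263, 189 and 88 in GHsf and 22.3, 77.3 and 14.5 in FHsf, with 20.5 to 92.7 in GWt and 64.6 to 143 in FWt, and an interaction of −3.97 (SE 0.93). At4g03570, whose probe set matches 2 loci, had 178, 84.3 and 123 in GHsf and 15.7 to 28.2 in FHsf. Its WT plates overlapped (29.8 to 48.9 in flight, 6.59 to 88.6 on the ground). Its interaction was −3.24 (SE 1.04), and the call was lost after quantile normalization and in 12 of the fits without 1 unit. Both genes were called in the HSFA2 KO response and neither in the WT response, which was 1.49 (SE 0.61) for U11/U12-31K and 0.71 (SE 0.68) for At4g03570. PMS1 (At4g02460), a DNA mismatch repair protein, is no member, since no group mean was over 100, the highest being 87.9 in FWt. Its signal was 57.5, 93.3 and 50.5 in GHsf and 17.2, 5.90 and 6.33 in FHsf, and its value in a fit of all 22746 probe sets was −4.23 (SE 0.84).

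Enzymes of branched-chain amino acid breakdown stood low in GHsf. Of 18 listed genes, all members, none was called in the interaction, where 1.04% of all members were. Of these 18, 13 were above 0 (48.4% of all members were) and the median interaction was 0.57, against −0.02 over all members. In the HSFA2 KO response 7 of the 18 were called higher, where 0.607% of members were, and none lower, where 1.08% were, and in the WT response none was called. The mean signal of GHsf was below that of GWt for 14 of 18, where this held for 40.8% of members. The median HSFA2 KO response was 0.83 and the median WT response 0.18. The list holds a theme that was already known from these arrays. DIN3, the E2 subunit of the branched-chain ketoacid dehydrogenase, had 3223, 6047 and 4594 in GHsf and 8351, 11952 and 10036 in FHsf. Its WT plates held 8251 to 14457 on the ground and 7897 to 17563 in flight, so FHsf lay within the WT range and GHsf below it. The E1 beta subunits DIN4 (1515, 3256 and 2656 in GHsf, 4816 to 7098 in FHsf) and BCDHB1 (3769 to 7305 in GHsf, 9444 to 12727 in FHsf) also separated, with WT plates of 3570 to 9557 and 6681 to 14883, so that GHsf lay below WT for DIN4 and overlapped it for BCDHB1. ALDH6B2, the methylmalonate semialdehyde dehydrogenase of valine breakdown, had 1136 to 1732 in GHsf and 2119 or more in every other unit. Interactions were 1.11 (SE 0.45) for DIN3, 1.29 (SE 0.52) for DIN4, 0.97 (SE 0.44) for BCDHB1 and 1.25 (SE 0.43) for ALDH6B2.

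The 4 values were smaller among Rep2 arrays, a fit with 1 array in each group but GHsf. Among Rep2 arrays only, the interaction was 0.32 (SE 0.61) for DIN3, 0.97 (SE 0.57) for DIN4, 0.13 (SE 0.54) for BCDHB1 and 0.16 (SE 0.72) for ALDH6B2, and without those arrays 1.78, 2.02, 1.71 and 1.57. GHsf B3, the single GHsf array outside that set, had the lowest signal of DIN3, DIN4 and BCDHB1. The list's median was 0.24 among Rep2 arrays, 1.03 without them and 0.38 with WT plates of BRIC B only, with 13, 13 and 12 of 18 above 0. With GHsf B3 and B3-2 averaged as 1 plate the median was 0.55.

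GHsf was also the lowest group for the genes of sugar starvation and darkness named here. Of 24 listed genes 22 had an interaction above 0, with a median of 0.28, and 1, RZPF34, was called higher. In the HSFA2 KO response 3 of the 24 were called higher, SEN1, BGAL4 and RZPF34, and in the WT response none. RZPF34, a RING zinc finger protein, had 28.1, 55.9 and 86.6 in GHsf and 216 to 356 in FHsf, with 108 to 373 in GWt and 84 to 440 in FWt, and an interaction of 2.84 (SE 0.86). The call of RZPF34 was lost after quantile normalization and in 10 of the 14 fits that left out 1 unit, and its value among Rep2 arrays only, with 1 array in each group but GHsf, was −0.95 (SE 0.74). The median of the list was 0.07 with 15 above 0 among Rep2 arrays and 0.60 with 22 above 0 without them. SEN1, a marker of dark-induced senescence, had 302, 519 and 339 in GHsf and 782 or more in every other unit, with an interaction of 1.86 (SE 0.64) and a limma p of 0.014. ASN1, the asparagine synthetase induced in the dark, had 636 to 1687 in GHsf and 1911 to 3046 in FHsf, against 773 to 3498 in WT, an interaction of 1.48 (SE 0.65). The 9 ATG8 genes of autophagy had a median interaction of −0.02, with none called (1.04% of all members were).

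**Figure D3:**
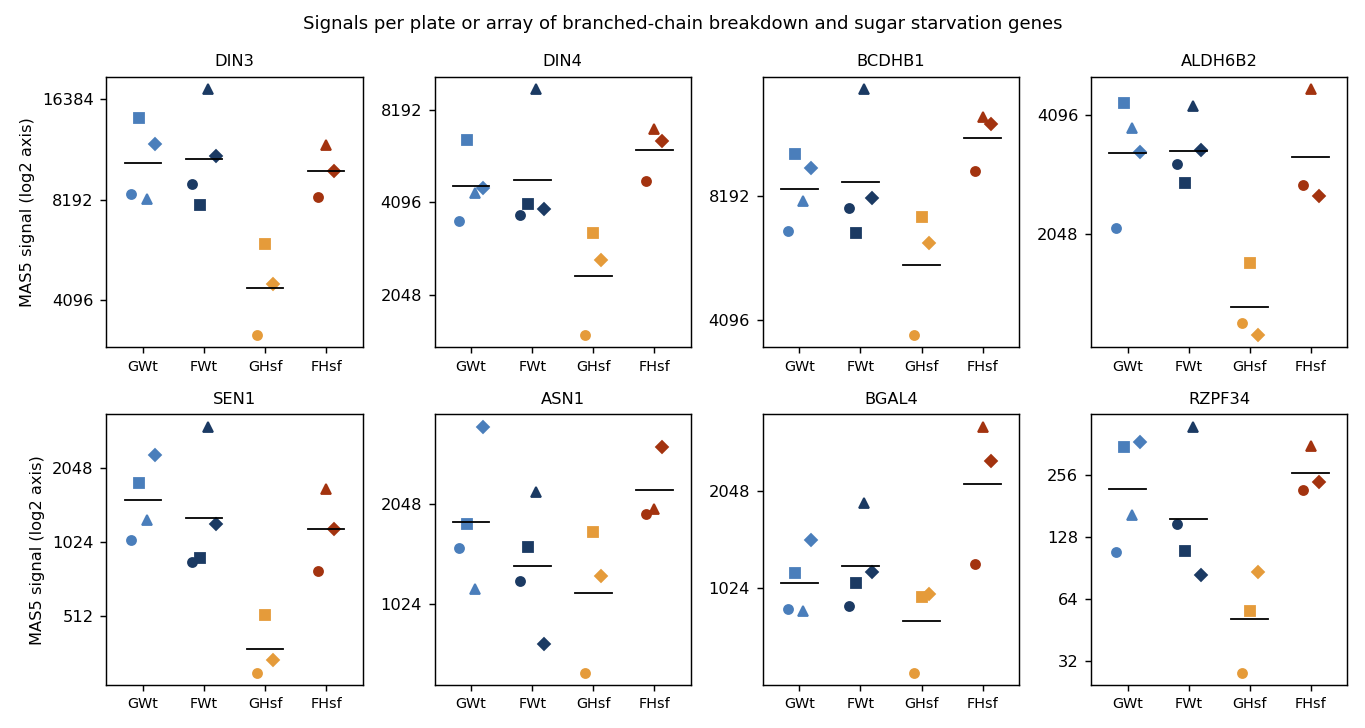
MAS5 signal (log2 axis) of 4 genes of branched-chain amino acid breakdown (top) and 4 of sugar starvation (bottom), with points and lines as in the plot of called genes. GHsf is the lowest group for each gene, GHsf B3 (circle) is the lowest GHsf array for all but ALDH6B2, and FHsf lies within or near the range of WT plates, except for BGAL4, where 2 FHsf arrays lie above it.

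No heat shock gene had a called interaction, and with 1.04% of all members called, lists of this size may well hold none. Of 12 small heat shock proteins over 100, out of 14 listed, 9 had an interaction above 0, with a median of 0.27. With WT plates of BRIC B only, 5 of 12 were above 0 and the median was −0.03. HSP22, a small heat shock protein of the endoplasmic reticulum, had 4327 and 4432 in FWt plates A1 and A2 and 16379 and 15674 in B1 and B2. On the ground it had 8950, 7496, 11807 and 13328, and in HSFA2 KO cells 4525, 4821 and 5236 in flight and 1720 to 3838 on the ground. The flight plates of WT thus differed by canister more than the flight and ground means did, and the interaction of 1.10 (SE 0.70) was 0.47 (SE 0.47) with BRIC B only. HSP18.2 had 9627 and 8236 in FWt A1 and A2 and 17232 and 16402 in B1 and B2, and HSP23.6, a mitochondrial member, had 27103 and 22232 against 38154 and 48803. For these 3 genes both BRIC B flight plates were above both BRIC A flight plates, as they were for HSFA2. Of 16 heat shock factors over 100, out of 21, none was called and the median was 0.25. The 27 other chaperones and heat memory genes had a median of −0.00, and GOLS1, a galactinol synthase induced by heat, had 1910 to 3644 in GHsf, 3964 to 5628 in FHsf and 5610 to 9571 in WT, with an interaction of 0.82 (SE 0.36).

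Genes of the endoplasmic reticulum and of vesicle traffic were likewise not called. Of 37 genes of folding and the unfolded protein response over 100, 23 were above 0 and the median was 0.14. PDIL2-3, a protein disulfide isomerase, had 691, 771 and 775 in FHsf and 357 to 434 in GHsf, and 98.6 to 317 in WT, and its interaction was not called. The interaction was 2.01 (SE 0.28) with WT plates of BRIC B only, with a limma p of 0.000124, and −0.11 (SE 0.54) among Rep2 arrays only. CRT3, a calreticulin, had the opposite sign, with 107 to 191 in FHsf, 298 to 324 in GHsf and 103 to 308 in WT, an interaction of −1.37 (SE 0.47). Of 13 vesicle coat genes 8 were above 0 with a median of 0.31. ARFA1D, a small GTPase that recruits coats, had 5697 to 7571 in FHsf, 3760 to 4860 in GHsf and 2460 to 3856 in WT, an interaction of 0.70 (SE 0.27), below the size limit.

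Among the lists of the cell wall, calcium and starch, 2 genes were called, both lower. ACA9, a calcium pump of the plasma membrane known for its role in pollen, had 49.8, 24.6, 19.9 and 29.4 in GWt and 80.5, 94.2, 202 and 298 in FWt, and 133, 74.5 and 157 in GHsf and 18, 71.4 and 3.92 in FHsf. Both genotypes separated, in opposite directions, and the interaction was −5.09 (SE 1.14), or −2.19 (SE 1.03) among Rep2 arrays only. EXPA16, an expansin that loosens the wall, had 11.7 to 36.3 in GWt and 74.5 to 123 in FWt, a WT response of 2.34 (SE 0.45). In HSFA2 KO cells EXPA16 had 54.5 to 111 in flight and 42.1 to 170 on the ground, a response of 0.01, and the interaction was −2.33 (SE 0.69). EXPA16 was over 100 in FWt alone, its highest group, and its call was lost with log2(signal + 32) (−1.29), with WT plates of BRIC B only (−2.20) and in 7 of the fits that left out 1 unit. The 31 expansins, xyloglucan endotransglucosylases and EXORDIUM genes over 100, out of 52, had a median interaction of −0.24 with 10 above 0, and the 25 calcium genes over 100, out of 33, a median of 0.15 with 16 above 0. None of 9 starch synthesis, 14 starch degradation and 6 cellulose synthase genes was called, where 1.04% of all members were. Their medians were −0.11, −0.24 and −0.43.

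Most genes of auxin and the cell cycle had an interaction below 0 in the fit of all units. Of 28 auxin genes over 100, 8 were above 0 and the median was −0.31, with none called (1.04% of all members were). The auxin median was −0.16 with WT plates of BRIC B only and −0.04 without Rep2 arrays, each with 13 above 0. Of 17 cell cycle genes over 100, out of 34, 4 were above 0, the median was −0.39 and CYCD3;2 alone was called. The median of the cell cycle list took another sign among Rep2 arrays only, at 0.65 with 10 above 0, and stood at −1.21 with 3 above 0 without them. The other D3 cyclins did not follow CYCD3;2 as a group, with an interaction of 0.41 (SE 0.36) for CYCD3;1 and −1.09 (SE 0.64) for CYCD3;3.

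**Figure D4:**
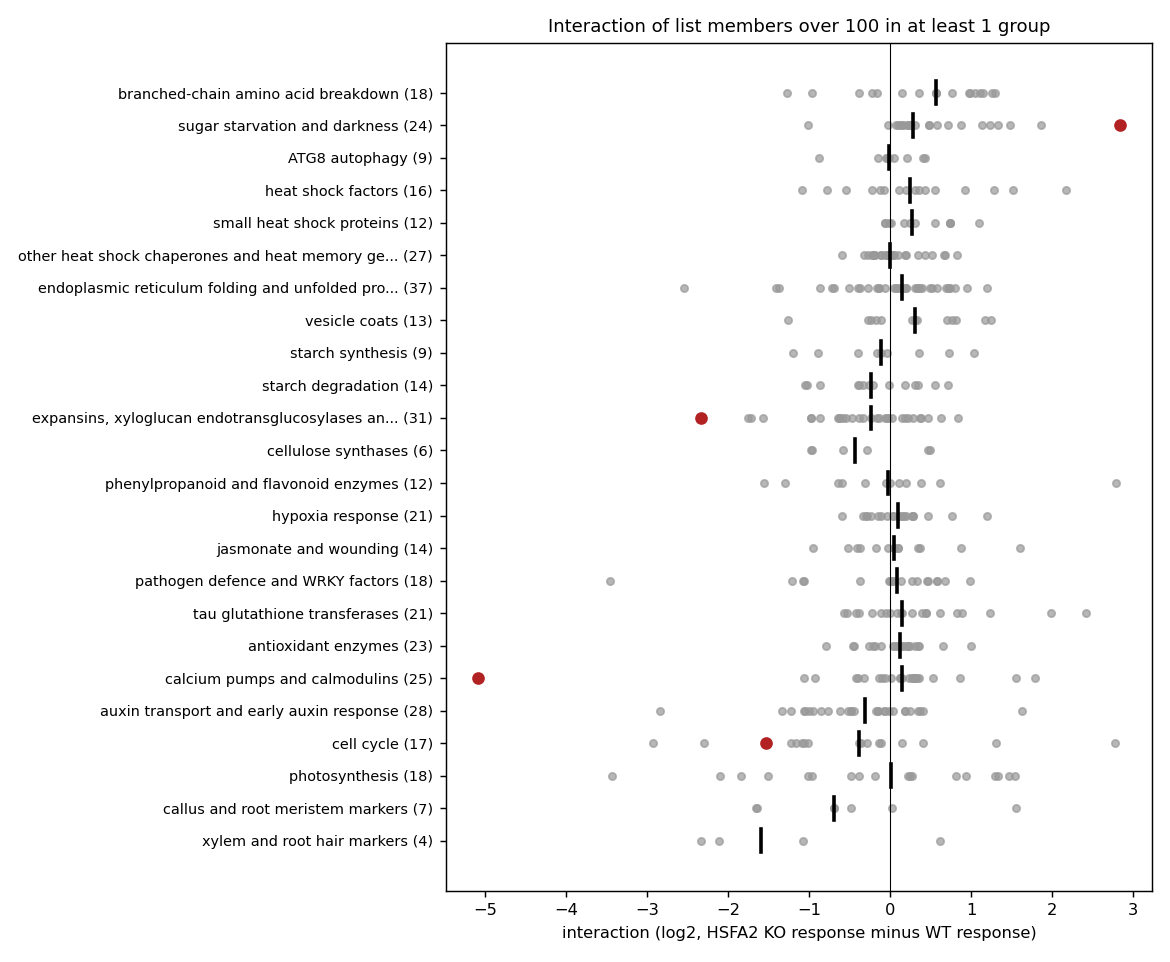
Interaction (x axis, log2) of the members of 24 gene lists over 100 in at least 1 group, 1 point per gene, with the number of members in brackets, the list median as a black bar and called genes in red. The branched-chain and starvation lists lie mostly to the right of 0, the auxin and cell cycle lists to the left, and 4 genes are called, RZPF34, EXPA16, ACA9 and CYCD3;2.

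The lists of stress, metabolism and photosynthesis that remain had no called member, where 1.04% of all members were called, and medians of at most 0.15 in size. Single members spread wider. They ran from −3.46 to 0.98 in the defence list, from −3.43 to 1.54 in photosynthesis and from −1.56 to 2.79 among phenylpropanoid enzymes. The medians were 0.09 for 21 hypoxia genes, 0.05 for 14 jasmonate genes, 0.09 for 18 defence genes and 0.15 for 21 tau glutathione transferases. They were 0.12 for 23 antioxidant enzymes, −0.02 for 12 phenylpropanoid enzymes and 0.02 for 18 photosynthesis genes. The photosynthesis median was −0.61 with WT plates of BRIC B only and 0.48 among Rep2 arrays only, and the defence median 0.45 and −0.23. HUP9, a hypoxia-induced gene, had 5006 to 6635 in GHsf, 8416 to 18630 in FHsf and 15775 to 33119 in WT, an interaction of 1.19 (SE 0.43). GSTU25, a glutathione transferase, had 98.1 to 209 in GHsf, 339 to 503 in FHsf and 52.4 to 130 in WT, and its HSFA2 KO response of 1.49 was called while its interaction of 1.23 (SE 0.46) was not.

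Callus identity was checked with 13 callus and root meristem markers, 7 of them over 100 and none called (1.04% of all members were). Their median interaction was −0.69, with 2 of 7 above 0. WIND1, a factor that promotes callus at wounds, had 3541, 7026, 6631 and 5602 in GWt, 1696 to 2952 in FWt, 1770 to 2328 in FHsf and 854, 1126 and 3638 in GHsf, an interaction of 1.55 (SE 0.62). LBD16, which acts downstream of auxin in callus formation, had 151 to 450 in GWt and 480 to 818 in FWt, and overlapping HSFA2 KO arrays (432 to 606 in flight, 373 to 1085 on the ground), an interaction of −1.66 (SE 0.58). The summed signal of 12 such markers was 5493 to 8636 in GWt, 3615 to 5138 in FWt, 3514 to 4340 in FHsf and 3160 to 7516 in GHsf. Of 10 markers of xylem and root hairs, cells that callus should lack, 4 were over 100, with a median interaction of −1.59 and 1 of 4 above 0. Both medians were below 0 under each alternative for which list medians were computed. The summed signal of the 10 was 320 to 1220 in FWt, 392 to 697 in GWt, 413 to 1063 in FHsf and 547 to 938 in GHsf. The callus sums of GWt were all above those of FWt and FHsf. Of these sums, WIND1 alone held 3541 to 7026 in GWt and 1696 to 2952 in FWt. LBD16 was higher in FWt, and the median WT response of the 7 markers was −0.10. The sums thus do not describe the markers as a set. The xylem and root hair sums overlapped among all groups, and the part of cell composition in the interactions was not tested.

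The number of calls moved by over 1.5 times with fits that kept 1 array in a group. It also did so with the signal filter, which changes the number of probe sets tested. With WT plates of BRIC B only 148 members were called, of which 46 were among the 136. With the canister as a term 149 were called and 123 were shared. Without Rep2 arrays, which leaves GHsf with B3 alone, 313 were called, 240 of them higher, with 48 shared. Among Rep2 arrays only, 250 were called, 191 of them lower, with 21 shared. Without GHsf B3 and B3-2, which leaves B5, 287 were called, 236 of them higher, with 47 shared. With B3 and B3-2 averaged as 1 plate 132 were called, 70 higher and 62 lower, with 92 shared. Both the number and the direction of calls thus moved with the arrays kept, of GHsf and of other groups (31 higher and 122 lower without FHsf B4), and 49 of the 136 were called in each fit that left out 1 unit.

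**Figure D5:**
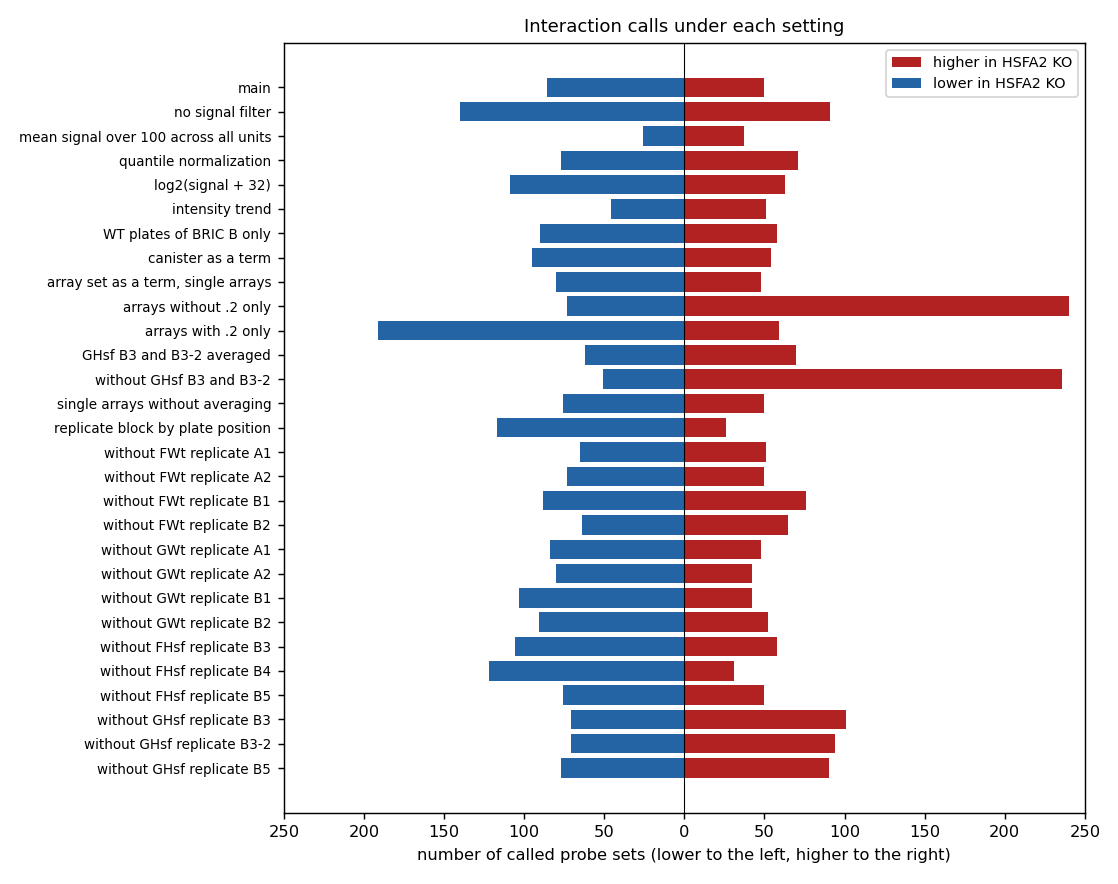
Number of called members (x axis) under the main fit, 14 alternatives and 14 fits that left out 1 unit each, with interactions called higher to the right and lower to the left (Rep2 arrays are marked there by the ending of their array names). Fits with 1 GHsf array left (without Rep2 arrays, or without B3 and B3-2) call 240 and 236 higher, whereas the fit of Rep2 arrays only calls 191 lower.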

How the data were processed

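Each ATH1 array gave 1 intensity per probe set, the linear MAS5 signal that the authors made in Affymetrix Expression Console, scaled to a common trimmed mean and deposited for 16 arrays. The authors' annotation gave locus names, and the loci of 12655 members were found in the RefSeq table (assembly TAIR10.1), which gave symbols. 1532 members match more than 1 locus. The deposited table also holds the authors' own fold changes and p-values, which were not used.

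The log2 of each signal was used with no offset, and plate A1 of WT entered as the mean of its 2 arrays. A group mean over 100 is the mean of the plates or arrays on the linear scale. The 4 groups were fitted with lmFit and eBayes of limma 3.58.1 in R 4.3.3, with 10 residual and 1.7 prior degrees of freedom, and the interaction was taken as a contrast. P-values were adjusted by Benjamini and Hochberg over all 13023 members. Nothing in the labels says that plates are more than separate samples of 1 culture line, so p-values measure the spread between plates. In GHsf they may partly measure the spread between arrays of 1 plate, since B3 and B3-2 entered as separate units. The procedure was tested on simulated data. The number of arrays limits the precision. Single genes were also tested by exact permutation. Alternatives were another filter, quantile normalization, an offset of 32, an intensity trend, canister, Rep2 arrays, treatment of the GHsf B3 arrays, a replicate block and leaving out each unit.

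The genes named are HSFA2, the 3 genes of opposite response, the 12 higher and 12 lower with the smallest p called also with the offset, and up to 4 of the smallest p per list. Genes over 100 in all 4 groups and other list members were added after their values were seen. The members and the 25 lists were chosen with earlier results of these data known. One gene that the naming rule selects is not reported here. A search of promoters for motifs was not run, since no sequence was used here. Figures were drawn with Python 3.11 and matplotlib 3.10.9.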

Additional observations from a re-analysis of the deposited data

Results flagged for a closer look

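CHR34 had an interaction of −6.26, the 1 difference between the genotypes' responses that passed adjustment over all members in the main fit. CHR34 is a member only through GHsf, where it is high (mean 151, against 66.8, 19.5 and 6.43 in FWt, GWt and FHsf), so that it had to differ among groups, and its adjusted p is no independent support.

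Among the genes named, 244 groups of 4 WT plates were tested for a plate far from the other 3 with Dixon's ratio. The test flagged 13, about as many as chance gives at 1 in 20 groups. Plate FWt B1 stood apart for At1g49570 (23.7), DIN4 (9557), the coat gene At3g15980 (172) and CDC20.2 (10.2). Plate FWt B2 did so for At1g50590 (59.5) and LBD16 (818), and FWt A1 for WIND1 (1696). On the ground, GWt B1 stood apart for At4g02550 (1302) and JAZ2 (377), GWt A2 for At4g11450 (3.32) and ISA1 (386), GWt A1 for GSTU4 (1425) and GWt B2 for PSAE1 (11.6).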

How the results depend on the processing

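The 136 calls, 50 higher and 86 lower, moved by over 1.5 times under these choices, whose cause was not tested. With no signal filter 231 of 22746 were called (91 higher, 140 lower), and with a mean over 100 across all units 63 of 10095, of them 26 lower. Both filters change the number of probe sets tested, which was 13023 in the main fit, so these counts are not shares. An intensity trend gave 46 lower. Without Rep2 arrays 313 were called (240 higher), among Rep2 arrays only 250 (191 lower), and without GHsf B3 and B3-2 287 (236 higher, 51 lower). Leaving out 1 unit gave 116 to 172 calls, 31 to 101 higher and 64 to 122 lower, with more than 1.5 times the main count of higher calls without FWt B1 (76), GHsf B3 (101), GHsf B3-2 (94) or GHsf B5 (90), and fewer without FHsf B4 (31). The replicate block by plate position called 143, of them 26 higher. Flight and ground plates of the same position correlated from −0.04 to 0.13 in their deviations, so they share only a number. Of the named genes RZPF34 alone changed sign where it had been called, to −0.95 among Rep2 arrays only, a fit with 1 array in each group but GHsf.

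The spread between 3 or 4 units limits what can be called. The median standard error of 0.525 sets the sizes that can be resolved, and it was 1.39 for members over 100 in 1 group only. Each genotype was 1 line, HSFA2 KO cells flew in 1 canister only, and the 3 GHsf arrays are not shown to be 3 plates. Genotype and line cannot be told apart, whereas WT plates of BRIC B allow a comparison within 1 canister. That comparison called 148 of 13023 members, 46 of them among the 136 of the main fit. No adjusted p from limma was under 0.05 there. Its unadjusted p-values under 0.05 numbered 645, where 651 would lie if p-values were evenly spread.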
